A study of Mus musculus with 9 samples.

Results

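Blood transcripts that mark the Ly6C-high, or classical, monocyte were examined in mice with collagen-induced arthritis (CIA) with and without 0.1 sub-THz irradiation. The 7 genes were Ly6c2, Ccr2, F13a1, Chil3, Vcan, Fn1 and Mgst1, taken by symbol from the 20926 genes of the FPKM matrix (a fragment count divided by the length of the transcript and the total of the library). They were chosen by symbol as markers of this cell type at a point when their FPKM in the 3 groups were already known. Their levels and differences are therefore given as a description, without a test, and p-values are given only for other genes. The lists of those other genes were also chosen with earlier results of these data known, and their counts and p-values carry that limit. All 7 were listed above 0 in all 9 libraries and passed the filter on low values.

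The libraries came from blood of male DBA/1 mice that were 7 weeks old when allocated, with 3 libraries per group and 1 column of values per library. The Ctrl group was the control without irradiation. The CIA group was immunized at the base of the tail with chick type II collagen in complete Freund's adjuvant and boosted with collagen in incomplete adjuvant. The CIA+THz group carried the same arthritis, and its swollen ankles received a daily exposure to 0.1 THz of 30 min under isoflurane on 14 days. Anesthesia of the other groups is not described in the sources used here, so the anesthesia and the irradiation of the CIA+THz group cannot be told apart. The labels name the tissue as blood leukocytes, whereas the extraction is described as total blood RNA.

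Classical monocytes leave the bone marrow for the blood and enter inflamed tissue, where they give rise to macrophages and dendritic cells. Their exit from the marrow depends on CCR2, the receptor of the chemokine CCL2, and in mice they are recognized by a high surface level of Ly6C. In the blood they can convert into patrolling monocytes, which have little Ly6C, carry CX3CR1 and depend on the nuclear receptor NR4A1. In arthritis, classical monocytes are one source of the macrophages of the inflamed synovium.

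A pair of these genes has a close relative whose reads could be shared with it, and the stretches below are shown because they carry the differences by which the copies can be separated. Ly6c2 (chromosome 15 of GRCm38, 75108158 to 75111970, minus strand) lies beside Ly6c1 (75044018 to 75048830, minus strand). The GENCODE coding sequences of both hold 393 bases, of which 384 are identical (97.7%), and the longest identical run is 188 bases. The reads were 150 bases long, and 39 of 673 windows of that length in the Ly6c2 transcript were also found in Ly6c1. The first 90 coding bases hold 6 of the 9 mismatches, printed in capitals.
Ly6c2: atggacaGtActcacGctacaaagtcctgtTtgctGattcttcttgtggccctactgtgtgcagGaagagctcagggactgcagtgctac
Ly6c1: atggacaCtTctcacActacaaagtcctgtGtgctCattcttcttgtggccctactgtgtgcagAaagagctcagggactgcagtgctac

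Chil3 (chromosome 3, 106147554 to 106167564, minus strand) and Chil4 (106201490 to 106219507, minus strand) were identical at 94.4% of their aligned coding positions, with 55 mismatches and 12 gapped positions. None of the 1390 windows of 150 bases of the Chil3 transcript was found in Chil4. Chil4 was listed at 0 in all 9 libraries, and an FPKM of exactly 0 can also be a failed estimate. Coding bases 827 to 916 of the alignment hold 12 of the mismatches, again in capitals.
Chil3: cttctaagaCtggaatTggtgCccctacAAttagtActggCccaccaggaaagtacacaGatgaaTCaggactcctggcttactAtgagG
Chil4: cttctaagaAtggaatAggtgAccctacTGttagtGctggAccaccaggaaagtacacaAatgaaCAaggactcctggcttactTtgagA

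The other members lie on different chromosomes or far apart, Ccr2 on chromosome 9 (124101950 to 124113557, plus strand), F13a1 on chromosome 13 (36867178 to 37050244, minus strand), Vcan on chromosome 13 (89655312 to 89742509, minus strand), Fn1 on chromosome 1 (71585520 to 71653200, minus strand) and Mgst1 on chromosome 6 (138140316 to 138156755, plus strand). RefSeq promoters of GRCm38 (250 bases upstream of the start) were at hand for 6 of the 7 genes, all but Fn1. The RefSeq starts differ from the GENCODE spans above. For Ccr2 and Mgst1 most of these bases lie inside the GENCODE span of the gene. They were searched on both strands for 3 motifs of factors known from the monocyte lineage. The core of PU.1 (GAGGAA) was found for F13a1 and Ly6c2, that is 2 of 6, against 23.1% of 27025 promoters. The C/EBP motif (TTGCNNAA) was found for Mgst1 alone, against 9.55% of all promoters. The KLF motif (CACCC) was found for Ly6c2, Mgst1 and Vcan, against 51.3% of all promoters, no 2 of its copies share bases, and those of Ly6c2 and 3 of the 4 in Vcan lie upstream of the stretches printed. The last 150 bases before the start site are printed for the members with a PU.1 core, for Vcan with a KLF match, and for Chil3, which had a large group difference and none of the 3 motifs. Motifs are in capitals, on the strand of the gene.
Ly6c2, chr15:75111972-75112121: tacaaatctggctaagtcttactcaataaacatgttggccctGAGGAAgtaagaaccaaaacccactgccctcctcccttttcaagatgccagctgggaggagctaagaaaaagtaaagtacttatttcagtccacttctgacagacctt
F13a1, chr13:37050245-37050394: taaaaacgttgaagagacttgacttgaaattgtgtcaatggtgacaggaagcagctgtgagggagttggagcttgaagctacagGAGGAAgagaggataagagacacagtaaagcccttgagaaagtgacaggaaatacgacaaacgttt
Vcan, chr13:89742513-89742662: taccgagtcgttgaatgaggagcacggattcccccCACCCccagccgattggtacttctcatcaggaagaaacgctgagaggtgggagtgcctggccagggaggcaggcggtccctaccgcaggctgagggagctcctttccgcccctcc
Chil3, chr3:106167565-106167714: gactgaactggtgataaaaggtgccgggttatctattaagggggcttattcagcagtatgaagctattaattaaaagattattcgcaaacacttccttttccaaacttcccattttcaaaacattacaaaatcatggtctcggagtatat

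Each FPKM column was divided by 1 factor per library (0.847 to 1.24), and the levels below are rescaled FPKM. Relative to the FPKM as deposited, this lowered the median gene of the CIA+THz group by 0.27 on the log2 scale against CIA and by 0.30 against Ctrl, and moved CIA against Ctrl by 0.03. The total of fragments per library is not held by FPKM. From the steps between low values the CIA+THz libraries were estimated at 1.35 to 1.87 times the depth of Ctrl replicate 1 and the others at 1.00 to 1.28 times, a rough figure, since at most 18.2% of the low genes lay on whole ratios. Alas2, the heme synthesis enzyme of red cell precursors, reached 47174 to 102970 rescaled FPKM in RNA labelled as leukocytes. It was lower in every CIA+THz library (47174 to 65083) than in the CIA libraries (86779 to 97383) without passing the criterion used here for a call (an absolute log2 difference above 0.67 with an unadjusted p under 0.05), while the other 5 of 6 erythroid genes overlapped between these groups and the list had a median log2 difference of -0.09, with 2 genes above 0. Monocyte RNA was present in all libraries, with Csf1r, a growth factor receptor of the monocyte lineage, between 88.3 and 204.

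In CIA blood all 7 genes had a higher mean level than in Ctrl, with a median difference of 0.47 on the log2 scale, beside a median of -0.01 over the 12366 genes tested. For 4 of the 7, Ly6c2, Ccr2, Chil3 and Fn1, every CIA library was above every Ctrl library, a pattern that 11.8% of all genes tested showed in that direction. In the CIA+THz group all 7 had a lower mean than in CIA, with a median difference of -0.36 beside 0.03 over all genes. For 5 of the 7, all but Ccr2 and Vcan, the CIA+THz libraries all lay under the lowest CIA library, which was the case for 10.2% of all genes, and none of the 7 showed the opposite (9.38% of all genes). Since the genes were proposed with these differences known, nothing further is read from these counts. Blood RNA was measured in bulk, so fewer monocytes and less RNA of a gene per monocyte cannot be told apart.

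The direction in CIA+THz depended on the scale. In the FPKM as deposited, the median difference of the 7 genes from CIA was -0.09, with Ccr2 (0.10) and Vcan (0.09) above 0 and F13a1, Chil3 and Fn1 still below CIA in every library. Against Ctrl, 4 of the 7 genes had a higher mean in CIA+THz and 3 a lower one (median 0.28, beside 0.04 over all genes), and for Ccr2, Chil3 and Fn1 no CIA+THz library overlapped a Ctrl library, beside 11.9% of all genes in that direction. In the FPKM as deposited all 7 were above Ctrl, with a median of 0.58.

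Genes of mature neutrophils, some of which classical monocytes also express, moved with the 7 genes between CIA+THz and CIA. All 9 of this list had a log2 difference below 0 (median -0.44), and 8 had an unadjusted p under 0.05 by limma (13.2% of all genes). For 6 every CIA+THz library lay under the lowest CIA library, beside 10.2% of all genes. Retnlg, a resistin-like secreted protein, and Il1r2, the decoy receptor of interleukin-1, passed the criterion as lower, beside 1.60% of all genes. The list's summed rescaled FPKM was 13097 to 21520 in Ctrl, against 14872 to 19220 in CIA and 11069 to 12521 in CIA+THz. In CIA against Ctrl the list had a median of -0.14, with 3 genes above 0 and 6 below, whereas all 7 classical genes were above 0. In the FPKM as deposited the median for CIA+THz against CIA was -0.16, with 1 gene above 0 and none past the criterion. The call of Il1r2 was also lost without CIA replicate 2 and without CIA+THz replicate 2 or 3. The part of neutrophil RNA in the lower level of the 7 genes in CIA+THz was not tested.

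**Figure D1:**
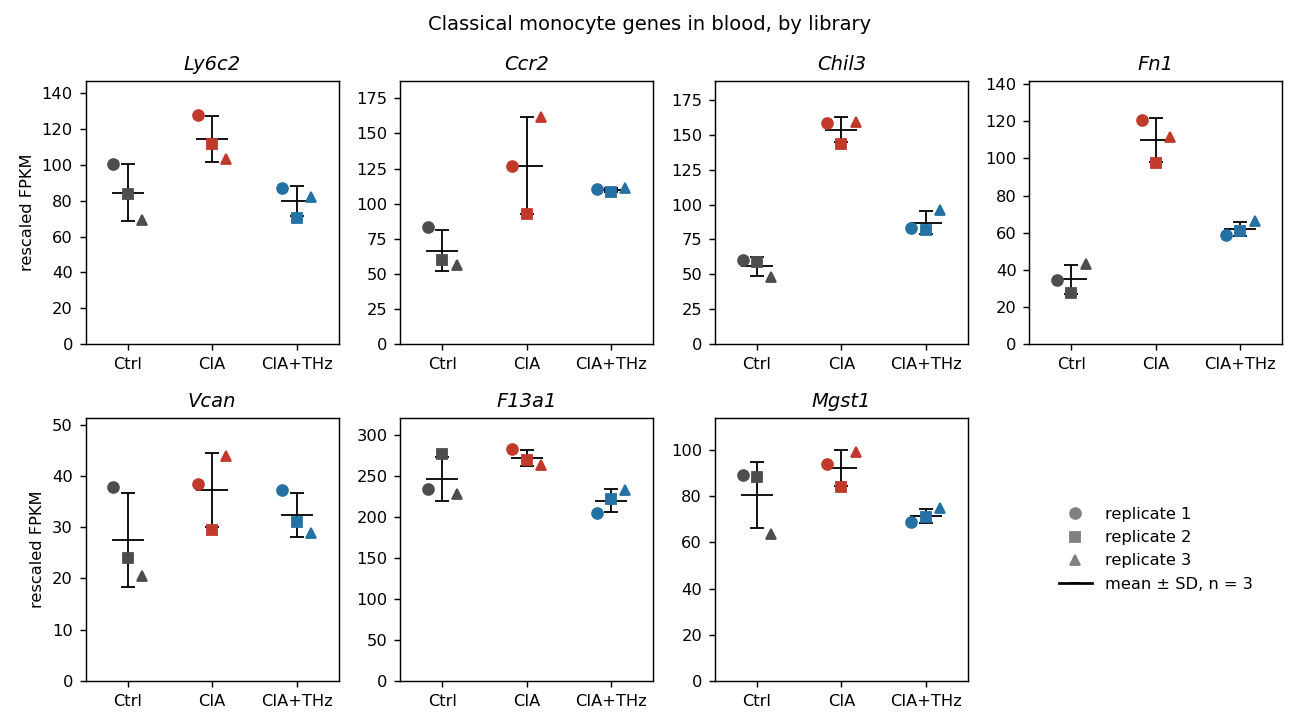
Rescaled FPKM of the 7 genes on a linear axis from 0, with 1 point per library (shape gives the replicate), and the mean ± SD of 3 libraries per group. Chil3 and Fn1 separate the 3 groups completely, with CIA on top (143 to 159 and 97.3 to 121), whereas the libraries of Vcan overlap in every pair of groups.

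The surface marker Ly6c2 encodes the GPI-anchored protein that, with LY6C1, is bound by antibodies to Ly6C. Its rescaled FPKM was 101, 83.7 and 69.2 in the Ctrl libraries, 128, 112 and 103 in CIA and 87.1, 70.6 and 82.1 in CIA+THz. All CIA libraries were above the other 6, although the lowest CIA library and the highest Ctrl library were close, and the CIA+THz libraries lay within the span of Ctrl. The means were 84.5 ± 15.7 (SD, n = 3), 114 ± 12.6 and 79.9 ± 8.47, and CIA was 0.45 ± 0.16 (SE) above Ctrl on the log2 scale, a 1.36-fold difference. CIA+THz was 0.52 below CIA (log2 difference -0.52, SE 0.12) and differed from Ctrl by -0.07 ± 0.16, a sign that turned in the FPKM as deposited (0.24), without Ctrl replicate 1 and without CIA+THz replicate 2.

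The neighbour Ly6c1, known from endothelium and lymphocytes, had rescaled FPKM of 33.7 to 42.8 in Ctrl, against 24.0 to 40.4 in CIA and 32.6 to 40.7 in CIA+THz. Its libraries overlapped between CIA and Ctrl (log2 difference -0.33 ± 0.20, adjusted p = 0.447 by limma). How the reads of both genes were divided is not given in the sources used here, so the level of Ly6c2 carries that uncertainty. Ly6C is also found on T and NK cells, whose marker lists had negative medians in CIA against Ctrl. The 10 T cell genes were all below 0 in CIA against Ctrl with none past the criterion in limma and 3 at an unadjusted p under 0.05 (17.3% of all genes), and their summed rescaled FPKM was 347 to 413 in Ctrl, against 298 to 337 in CIA and 360 to 495 in CIA+THz. Of 6 NK genes tested, 3 fell in CIA against Ctrl, beside 4.25% of all genes. The sums of that list were 139 to 179, 50.0 to 113 and 91.8 to 145. Their part in the level of Ly6c2 was not tested.

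Ccr2, the chemokine receptor of marrow exit, had 83.3, 60.2 and 56.5 rescaled FPKM in Ctrl, against 127, 92.9 and 162 in CIA and 111, 108 and 111 in CIA+THz. Both arthritic groups were above all Ctrl libraries, and the CIA+THz libraries fell inside the wide span of CIA. The means were 66.7 ± 14.5 in Ctrl and 127 ± 34.4 in CIA, a difference of 1.89-fold or 0.92 ± 0.23 on the log2 scale, with 109.8 ± 1.59 in CIA+THz. Among the 7 genes Ccr2 had the smallest difference between CIA+THz and CIA (-0.17 ± 0.19), which was -0.38 without CIA replicate 2 and whose sign turned without CIA replicate 3 (0.02) and in the FPKM as deposited. Its difference from Ctrl in CIA+THz was 0.74 ± 0.15.

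The ligands of CCR2 were at or near 0 in blood. Of 10 listed genes of the CCR2 axis (ligands, scavenging receptors and related chemokine receptors) 6 were tested, and 1 passed the criterion, beside 9.04% of all genes in CIA against Ctrl. It was Ccl2, the main ligand, with 2.44, 0.634 and 0.482 in Ctrl, 0 in all 3 CIA libraries and 0.241, 0 and 0 in CIA+THz. Ccl2 passed in both groups against Ctrl, with an adjusted p of 0.0812 for CIA and 0.147 for CIA+THz, and no fold is given against a group listed at 0. Ccl7 and Ccl12, further ligands of CCR2, were listed at 0 in all 9 libraries. Ccr1, a receptor shared by monocytes and neutrophils, was 216 to 262 in Ctrl, against 157 to 176 in CIA and 149.7 to 172 in CIA+THz, on the other side of Ctrl from Ccr2, but its log2 differences of -0.50 ± 0.12 and -0.56 ± 0.12 stayed under the fold limit.

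Chil3 encodes Ym1, a secreted chitinase-like lectin of monocytes, alternatively activated macrophages and neutrophils. It was 60.6, 58.7 and 47.9 in Ctrl, against 158, 143 and 159 in CIA and 82.9, 81.6 and 96.3 in CIA+THz. The 3 groups did not overlap, and CIA+THz lay between the others. The means were 55.8 ± 6.84, 154 ± 8.94 and 86.9 ± 8.11, so that CIA was 2.76-fold above Ctrl (log2 difference 1.47 ± 0.13) and CIA+THz was 0.82 below CIA (-0.82 ± 0.10) and 0.64 ± 0.13 above Ctrl. None of the 13 alternative settings changed the sign of these 3 differences. With groups that do not overlap, leaving out a library could not have done so. The difference between CIA+THz and CIA was smallest in the FPKM as deposited (-0.55).

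Transcripts of neutrophil granules were measured beside Chil3. Of the 10 genes of immature neutrophils, Camp, Ltf and Ngp rose in CIA against Ctrl, beside 4.79% of all genes. Mmp8, a collagenase of later granules, fell, beside 4.25%. Camp, which encodes the cathelicidin of specific granules, was 1.64, 3.36 and 7.61 in Ctrl, against 68.6, 107.6 and 155 in CIA and 18.6, 37.3 and 23.7 in CIA+THz, with log2 differences of 4.86 ± 0.54 (adjusted p = 0.0361) for CIA against Ctrl and -2.04 ± 0.35 (adjusted p = 0.189) for CIA+THz against CIA. In CIA+THz against CIA, Camp, Ltf, Ngp and Cd177 passed as lower, beside 1.60% of all genes. The summed level of the list was 479.6 to 868 in Ctrl, against 669 to 1675 in CIA and 439 to 569 in CIA+THz. The defining genes of promyelocytes were near 0, with Elane at most 0.236, Prtn3 at most 0.726, Mpo at most 1.70 and Ctsg at most 1.95. The part of neutrophil precursors in Chil3 was not tested.

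Fn1 encodes fibronectin, an adhesive glycoprotein of the matrix. It was 34.4, 27.4 and 43.0 in Ctrl, against 121, 97.3 and 111 in CIA and 58.7, 61.0 and 66.1 in CIA+THz. As for Chil3, the groups did not overlap and CIA+THz was intermediate. The means of 35.0 ± 7.82, 109.9 ± 11.9 and 61.9 ± 3.77 gave the widest difference of the 7 genes between CIA and Ctrl, 3.18-fold or 1.67 ± 0.18 on the log2 scale. CIA+THz was 0.82 below CIA (-0.82 ± 0.11, and -0.55 in the FPKM as deposited) and 0.85 ± 0.17 above Ctrl. No setting changed a sign, which leaving out a library could not have done here either.

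Vcan encodes versican, a large chondroitin sulfate proteoglycan that monocytes secrete. Its values were 37.9, 24.1 and 20.5 in Ctrl, against 38.4, 29.5 and 43.9 in CIA and 37.2, 31.1 and 28.8 in CIA+THz. Ctrl replicate 1 lay within the span of the arthritic libraries, and every pair of groups overlapped. The differences were 0.47 ± 0.25 for CIA against Ctrl, -0.19 ± 0.17 for CIA+THz against CIA and 0.28 ± 0.23 for CIA+THz against Ctrl, on means of 27.5 ± 9.21, 37.3 ± 7.28 and 32.4 ± 4.37. Single libraries moved all 3. The first was 0.72 without Ctrl replicate 1 and 0.28 without Ctrl replicate 3. The second was -0.35 without CIA replicate 2, -0.06 without CIA replicate 3, -0.30 without CIA+THz replicate 1 and -0.11 without CIA+THz replicate 3. The third was 0.53 without Ctrl replicate 1, 0.09 without Ctrl replicate 3 and 0.17 without CIA+THz replicate 1. The receptors and partners of fibronectin and versican were a list of integrins, Cd44, syndecan and related genes, with 9 tested. None passed the criterion by limma in CIA against Ctrl, CIA+THz against CIA or CIA+THz against Ctrl, beside 9.04%, 4.54% and 7.88% of all genes. In the same order, 0, 1 and 2 of the 9 had an unadjusted p under 0.05, beside 17.3%, 13.2% and 18.1% of all genes.

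F13a1 encodes the A subunit of coagulation factor XIII, the transglutaminase that crosslinks fibrin and fibronectin. It was 235, 277 and 228 in Ctrl, against 283, 269.6 and 264 in CIA and 205, 222 and 233 in CIA+THz. CIA overlapped Ctrl, and CIA+THz was below every CIA library. The means were 246 ± 26.6, 272 ± 9.70 and 220.2 ± 13.8, with log2 differences of 0.15 ± 0.12 for CIA against Ctrl, -0.31 ± 0.09 for CIA+THz against CIA and -0.16 ± 0.11 for CIA+THz against Ctrl. As deposited, the second was -0.03 and the last turned to 0.15. The first was 0.24 without Ctrl replicate 2 and 0.09 without Ctrl replicate 3, and the last was -0.07 without Ctrl replicate 2.

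Platelets and megakaryocytes also hold factor XIII-A. None of 9 platelet genes passed the criterion in limma in any comparison, with 1, 6 and 3 at an unadjusted p under 0.05 in CIA against Ctrl, CIA+THz against CIA and CIA+THz against Ctrl, beside 17.3%, 13.2% and 18.1% of all genes. All 9 were below 0 in CIA+THz against CIA (median -0.41), but only 6 were in the FPKM as deposited (median -0.13). Their summed level was 4612 to 5708 in Ctrl, against 4383 to 5478 in CIA and 3681 to 4409 in CIA+THz. In both the list and F13a1, CIA+THz replicate 1 was the lowest library of the whole set. The part of platelets in F13a1 was not tested.

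Mgst1, a microsomal glutathione transferase that detoxifies lipid peroxides, was 89.4, 88.4 and 63.8 in Ctrl, against 93.8, 83.9 and 99.1 in CIA and 68.9, 71.0 and 74.8 in CIA+THz. CIA overlapped the 2 higher Ctrl libraries, and CIA+THz was below all CIA libraries. The means were 80.5 ± 14.5, 92.3 ± 7.75 and 71.6 ± 2.96. CIA was 0.21 ± 0.16 above Ctrl, CIA+THz was 0.36 below CIA (-0.36 ± 0.09) and 0.15 below Ctrl (-0.15 ± 0.14), and the last sign turned in the FPKM as deposited (0.15). Without Ctrl replicate 3 the difference of CIA from Ctrl was 0.05 and that of CIA+THz from Ctrl was -0.31, and the latter was -0.07 without Ctrl replicate 1 and -0.08 without Ctrl replicate 2. Neutrophil precursors also express Mgst1, and the values of their granule genes stand above.

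**Figure D2:**
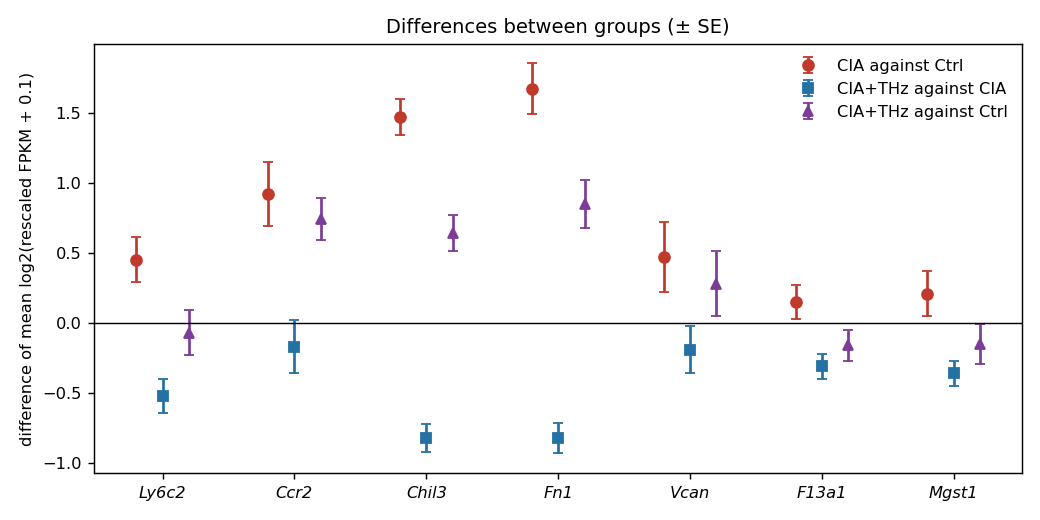
Differences of mean log2(rescaled FPKM + 0.1) with their SE for the 7 genes in 3 comparisons of 3 libraries each. CIA against Ctrl is above 0 for all 7, with Chil3 (1.47) and Fn1 (1.67) on top, and CIA+THz against CIA is below 0 for all 7 on this scale.

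By level, which FPKM gives per length of transcript, F13a1 was the highest of the 7 in every library, and Vcan had the lowest mean in every group. In Ctrl, Ly6c2, Mgst1, Ccr2 and Chil3 followed F13a1 in that order, each overlapping its neighbour, and Fn1 and Vcan overlapped each other below them. In CIA the order after F13a1 was Chil3, Ccr2, Ly6c2, Fn1 and Mgst1, again with each pair of neighbours overlapping. In CIA+THz, Ccr2 came after F13a1 and stood apart from Chil3, Ly6c2 and Mgst1, which overlapped in turn, and Fn1 stood below these.

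The libraries of a group also differed together. Ctrl replicate 1 was the highest Ctrl library for 5 of the 7 genes and Ctrl replicate 3 the lowest for 6. In CIA, replicate 2 was the lowest for 5 of the 7, and in CIA+THz replicates 1 and 2 were each the lowest for 3. The 16 general monocyte genes had the same library lowest most often in CIA (replicate 2, for 10) but not in Ctrl, where replicate 2 was the lowest for 11 and replicate 3 for 4. In CIA+THz, replicate 2 was the lowest for 14 of the 16. For 5 of the 7 genes the libraries of CIA+THz had the smallest coefficient of variation of the 3 groups, and for F13a1 and Chil3 those of CIA had. It was between 1.44% (Ccr2) and 13.5% (Vcan) in CIA+THz, 3.56% to 27.1% in CIA and 10.8% to 33.5% in Ctrl. The CIA+THz libraries were also the deeper ones by the rough estimate above, and the part of depth in this was not tested.

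A further 17 genes known from classical monocytes were tested, with the question of whether they moved as the 7 did. This list too was chosen with earlier results of these data known. Of these, 7 passed as higher in CIA against Ctrl (Plac8, S100a4, Ms4a8a, Lyz1, Ifitm3, Ifitm6 and Ms4a4c) and none as lower. Over all genes 9.04% were called, 4.79% as higher and 4.25% as lower. By sign the list was mixed, with 11 of the 17 above 0 and 6 below (median log2 difference 0.55). Thbs1, the matrix protein thrombospondin-1, was 98.1 to 139.5 in Ctrl against 69.6 to 77.1 in CIA, without passing the criterion. A lower call for 1 gene of the list appeared without Ctrl replicate 1, Ctrl replicate 3 or CIA replicate 3. S100a4, a calcium-binding protein of motile cells, was 83.8, 100.6 and 78.0 in Ctrl, against 249.9, 199 and 216 in CIA and 137, 140.2 and 146 in CIA+THz. Its difference of 1.34 ± 0.14 was the only one of the list with an adjusted p under 0.05 in that comparison (0.0361, between 0.000812 and 0.179 over the alternatives). Plac8, a small cysteine-rich protein of myeloid cells, was 1.62 ± 0.25 above Ctrl on the log2 scale (adjusted p = 0.0610). Lyz1 has a close copy in Lyz2, with which it may share reads. The call of Ifitm6 was lost without Ctrl replicate 3 or CIA replicate 3 and that of Ms4a4c without Ctrl replicate 2, whereas the other 5 were called whichever library was left out.

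Between CIA+THz and CIA, 5 of these 17 fell (Cd14, Ifitm6, Lyz1, Ms4a8a and S100a6) and none rose, beside 1.60% of all genes called as lower and 2.94% as higher (4.54% in all). By adjusted p under 0.05 no gene of all 12366 passed in this comparison by limma, and 1634 had an unadjusted p under 0.05, 10 of them in this list. Cd14, the co-receptor for lipopolysaccharide, was 71.3, 83.7 and 78.9 in CIA and 46.3, 38.0 and 49.9 in CIA+THz (-0.81 ± 0.13, adjusted p = 0.172), and it was also below Ctrl (68.6 to 102; -0.95 ± 0.17, adjusted p = 0.0873). Without the rescaling none of the 17 passed as lower and 8 were above 0. Single libraries decided 4 of the calls, which were lost for Ifitm6 without CIA replicate 3 or CIA+THz replicate 3, for Ms4a8a without replicate 2 of either group, for S100a6 without CIA replicate 2, and for Lyz1 without CIA replicate 1 or 3 or CIA+THz replicate 2 or 3. The list held 3 calls without CIA replicate 3 and 3 without CIA+THz replicate 2.

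In CIA+THz against Ctrl, 5 of the 17 passed as higher (Plac8, S100a4, Ms4a8a, Ifitm3 and Ms4a4c) and Cd14 and Thbs1 as lower. Of all genes, 7.88% were called (4.64% higher and 3.24% lower). By sign 8 of the 17 were above 0 and 9 below, with a median log2 difference of -0.13. On the scale as deposited, 7 passed as higher and none as lower, with 13 above 0 and 4 below (median 0.17). Plac8 and Cd14 were called whichever library was left out. The other calls were lost for Ifitm3 without Ctrl replicate 3 or CIA+THz replicate 1, for Thbs1 without Ctrl replicate 2 or CIA+THz replicate 1, for Ms4a4c without any 1 of these 3 libraries, for Ms4a8a without Ctrl replicate 1 or CIA+THz replicate 1 or 3, and for S100a4 without Ctrl replicate 1 or 3 or CIA+THz replicate 3.

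Among 16 genes listed as general monocyte genes, 12 rose in CIA against Ctrl and none fell, with a median of 1.04 on the log2 scale. Of all genes, 4.79% were called as higher and 4.25% as lower in this comparison. Csf1r was 88.3, 89.3 and 108 in Ctrl, against 192, 204 and 201 in CIA and 159, 137 and 150.2 in CIA+THz (1.07 ± 0.12 in CIA against Ctrl, adjusted p = 0.0361, between 0.00147 and 0.179 over the alternatives). Ms4a6d, a membrane protein of myeloid cells, was 14.5 ± 3.81, 48.8 ± 3.03 and 28.8 ± 1.93 (1.77 ± 0.19, adjusted p = 0.0361, between 0.000812 and 0.179). Fcgr1, the high-affinity receptor for IgG, had the widest difference of the list (2.69 ± 0.42, adjusted p = 0.0616). Clec4a3 lost its call without CIA replicate 3.

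Of the 16, 15 were below 0 in CIA+THz against CIA (median -0.34). Only Ms4a6d passed as lower (-0.76 ± 0.10, adjusted p = 0.172 by limma), beside 1.60% of all genes. As deposited, the median was -0.06 and none passed. Leaving out CIA replicate 2 gave 3 calls, and leaving out CIA+THz replicate 1 or replicate 3 gave 2. Against Ctrl, 8 of the 16 were higher in CIA+THz and none lower (median 0.72), beside 4.64% and 3.24% of all genes. Among the 8 was Ctss, the cathepsin of antigen processing (0.86 ± 0.09, adjusted p = 0.0305 by limma, between 0.0168 and 0.203 over the alternatives).

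The 7 classical markers were then set against these 16 genes within each library. The mean log2 level of the 7 genes minus that of the 16 general monocyte genes was 0.35, 0.44 and 0.23 in Ctrl, against 0.09, 0.07 and 0.07 in CIA and -0.13, 0.02 and -0.01 in CIA+THz. The 3 groups did not overlap in this measure, on which the scaling between libraries has almost no bearing. Relative to Csf1r alone, F13a1 had a ratio of 2.62 ± 0.496 in Ctrl, against 1.37 ± 0.0894 in CIA and 1.49 ± 0.171 in CIA+THz, and Mgst1 of 0.864 ± 0.237, 0.464 ± 0.0460 and 0.483 ± 0.0434. Ly6c2 and Vcan also had lower mean ratios in both arthritic groups, and those of Ccr2 overlapped between all groups (0.713 ± 0.213, 0.639 ± 0.175 and 0.740 ± 0.0445). The ratios of Fn1 and Chil3 were higher in every CIA library than in any Ctrl library, with 0.365 ± 0.0504, 0.553 ± 0.0761 and 0.418 ± 0.0417 for Fn1 and 0.596 ± 0.132, 0.772 ± 0.0629 and 0.586 ± 0.0598 for Chil3 in Ctrl, CIA and CIA+THz. These ratios use the values that chose the genes and carry no test. Whether the 16 genes and Csf1r are expressed evenly across monocyte subsets, or partly by other blood cells, was not tested.

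The patrolling monocyte genes had a different order of groups. Of 11 genes, Nr4a1 passed as higher and Fabp4 as lower in CIA against Ctrl, beside 4.79% and 4.25% of all genes. In CIA+THz against CIA all 11 were above 0 (median 0.41), with Ace and Fabp4 passing as higher, beside 2.94% of all genes. Against Ctrl, 7 of the 11 were higher in CIA+THz (Nr4a1, Cx3cr1, Ace, Eno3, Cd300e, Ear2 and Adgre4), beside 4.64% of all genes. The median of the list was 0.86. Nr4a1 was 3.45, 2.33 and 4.84 in Ctrl, against 6.43, 4.51 and 7.71 in CIA and 8.33, 7.16 and 8.90 in CIA+THz (1.23 ± 0.28 in CIA+THz against Ctrl, adjusted p = 0.120). Cx3cr1, the fractalkine receptor, varied more between the libraries of Ctrl (3.86, 14.5 and 21.7) and CIA (29.0, 13.7 and 36.3) than in CIA+THz (27.2, 29.6 and 29.0), and its call was lost when any 1 CIA+THz library was left out. Against Ctrl, Ear2 was also lost without Ctrl replicate 3 or CIA+THz replicate 1 or 3, and Ace and Adgre4 without Ctrl replicate 2. Nr4a1 was not called in CIA without any 1 of Ctrl replicates 1 and 2 and CIA replicates 1 and 3, nor as deposited, and against CIA the calls were lost for Ace without CIA replicate 2 or CIA+THz replicate 1 or 3 and for Fabp4 without CIA replicate 3 or CIA+THz replicate 2 or 3. No gene of this list had an adjusted p under 0.05 in limma. In the 3 comparisons 3, 5 and 8 had an unadjusted p under 0.05, beside 17.3%, 13.2% and 18.1% of all genes. Without the rescaling all 11 were again above 0 in CIA+THz against CIA, and 6 passed as higher. Whether the classical and patrolling lists differ in their response was not tested.

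**Figure D3:**
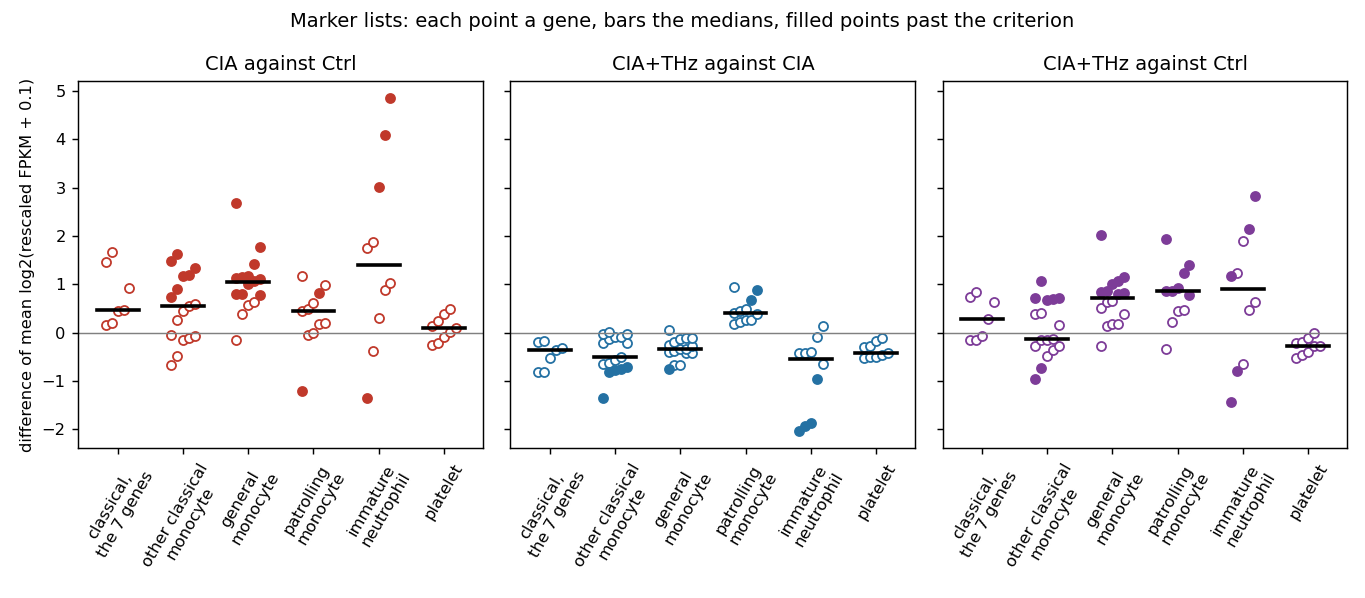
Differences of mean log2(rescaled FPKM + 0.1) for each gene (points) of 6 marker lists in 3 comparisons, with the list median as a bar and filled points past the criterion, which was not applied to the 7 classical monocyte genes. In CIA+THz against CIA the patrolling list lies above 0 (median 0.41) and the classical (-0.36), general (-0.34) and platelet (-0.41) medians lie below it.

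Of 11 transcription factors of the monocyte lineage, Cebpa, Irf5 and Cebpe passed as higher and Runx1 as lower in CIA against Ctrl. Over all genes, 4.79% were called as higher and 4.25% as lower there. Cebpa, which drives myeloid commitment, was 22.3, 20.8 and 14.5 in Ctrl, against 28.7, 39.4 and 42.4 in CIA and 27.9, 25.8 and 25.9 in CIA+THz (0.94 ± 0.22, adjusted p = 0.108). Spi1, which encodes PU.1, was 218 to 253 in Ctrl, against 281 to 391 in CIA and 229 to 274 in CIA+THz, and its difference of 0.58 ± 0.15 in CIA against Ctrl did not reach the fold limit. Klf4, required for monocyte development, was low (3.25 to 6.60) and passed in none of the comparisons. Cebpe was lost without either of 2 Ctrl libraries (replicates 1 and 2) or any 1 CIA library, Irf5 without Ctrl replicate 2, and Runx1 without any 1 of 5 libraries, all but CIA replicate 1. Gfi1 alone passed in CIA+THz against CIA, as higher, at levels of 0 to 1.05, and not without CIA+THz replicate 1 or 3.

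Among the relatives of the 7 genes, Ly6i and Ly6d passed as higher in both arthritic groups against Ctrl, as 2 of 13 tested. Of all genes, 4.79% in CIA and 4.64% in CIA+THz were called as higher than Ctrl. Ly6i, another Ly6 gene of the same cluster, was 1.61, 2.81 and 2.89 in Ctrl, against 24.5, 8.77 and 12.2 in CIA and 10.9, 6.76 and 14.2 in CIA+THz. Its log2 difference was 2.5 ± 0.41 in CIA (adjusted p = 0.0669) and 2.06 ± 0.34 in CIA+THz (adjusted p = 0.0703) against Ctrl, and CIA+THz against CIA was -0.44 ± 0.42. Chil1, the other chitinase-like gene of blood, was 146 to 225 in Ctrl, against 169 to 249.9 in CIA and 117 to 180.4 in CIA+THz and passed in none of the comparisons. Both calls of Ly6d were lost without Ctrl replicate 2, and each was also lost without replicate 2 of its arthritic group. Mgst3 passed as lower in CIA+THz against Ctrl (-0.99 ± 0.33, adjusted p = 0.190), and its call was lost in 4 of 6 fits that left out a library (Ctrl replicate 1 or 2, CIA+THz replicate 1 or 3).

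The genes whose profile over the 9 libraries came closest to the mean of the 7, among 9741 genes with a mean of at least 1, were Slc4a2, Sirpb1a, Lyz2, Mefv and Trappc1. Their root mean square difference from that mean profile on the log2 scale was 0.111, 0.111, 0.115, 0.118 and 0.123, while the members themselves lay between 0.203 (Ly6c2) and 0.427 (Fn1) from it. Lyz2, lysozyme of myeloid cells, was 2716 ± 163 in Ctrl, against 4715 ± 250 in CIA and 2963 ± 113 in CIA+THz. The libraries share these values through the same scaling, and the likeness is a description.

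**Figure D4:**
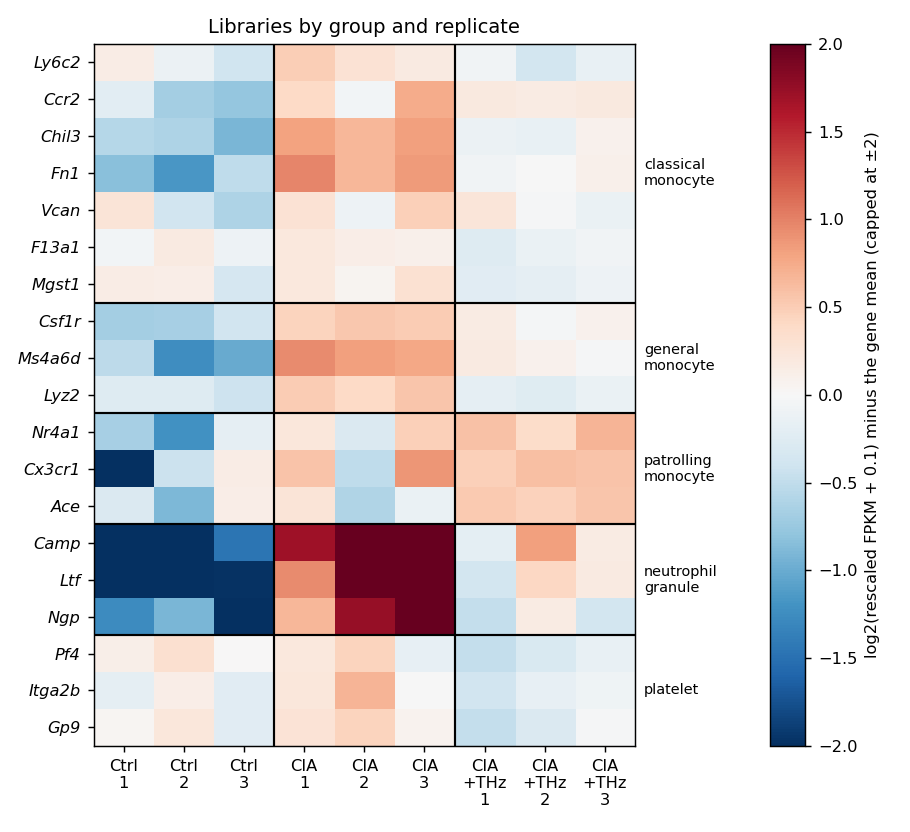
Heat map of log2(rescaled FPKM + 0.1) minus the mean of each gene over the 9 libraries, colour capped at 2 on both sides, for the 7 genes and for examples of 4 other lists chosen after their values were seen. On average the classical and general monocyte rows are highest in CIA and the patrolling rows (Nr4a1, Cx3cr1 and Ace) in CIA+THz. The granule rows (Camp, Ltf and Ngp) span the widest range. Some members of these lists that are not drawn differ. Fabp4 (patrolling), Itgam (general) and Mmp8 and Lcn2 (granule) had their highest means in Ctrl, at 30.7, 91.3, 216 and 330.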

How the data were processed

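RNA of 9 mouse blood samples (3 each in Ctrl, CIA and CIA+THz) was sequenced on an Illumina HiSeq instrument with paired reads of 150 bases. Values were deposited as FPKM by the authors in 1 column per library, and their processing notes name bcl2fastq 2.0, HISAT2, StringTie and the build mm10 (GRCm38). The annotation, strand setting and counting of shared reads are not given in the sources used here. Groups came from the sample labels.

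Columns were divided by median-of-ratios factors over 10312 genes above 0 in all libraries. The 12366 genes whose rescaled FPKM averaged 0.1 or more were tested on log2(rescaled FPKM + 0.1) with limma 3.58.1 (lmFit, eBayes with trend; R 4.3.3), each pair of groups on its 6 libraries. The criterion, after the study, was an absolute log2 difference above 0.67 together with an unadjusted p under 0.05. Adjusted p-values are Benjamini-Hochberg over all genes tested, and fold changes understate low genes. The fit was tested on simulated data. The members, lists and tests were chosen with earlier results of these data known. Named were all members, genes past the criterion in a comparison, markers of other cells, and the 5 genes most like the members' mean profile. Some genes were named after their values were seen (Ly6c1, Spi1, Klf4, Chil1, Ccr1). Some listed genes entered the counts and are not reported here by name. Coordinates and coding sequences are from GENCODE, promoters from RefSeq. Alternatives were FPKM as deposited, a pseudocount of 1, a minimum mean of 1, no variance trend, all groups in 1 fit, a replicate block, adjusted p and leaving out each library.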

Additional observations from a re-analysis of the deposited data

How the results depend on the processing

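Beside the reported fits, 130 of the 165 values recomputed for the lists and member medians stayed within their spread or within 1.5 times the reported count. In the FPKM as deposited, calls in CIA+THz against CIA went from 5 to 0 (other classical), from 1 to 0 (general) and from 2 to 6 (patrolling), patrolling calls in CIA against Ctrl from 2 to 1, the median of the 7 genes to -0.09 against CIA and 0.58 against Ctrl, and F13a1 in CIA+THz against Ctrl to 0.15. A pseudocount of 1 left 1 patrolling call in CIA+THz against CIA, and no variance trend left 1 there and 1 in CIA against Ctrl. With adjusted p, the calls in CIA against Ctrl, CIA+THz against CIA and CIA+THz against Ctrl were 1, 0 and 0 (other classical), 2, 0 and 1 (general) and 0, 0 and 0 (patrolling). The cause of these moves was not tested beyond the settings themselves.

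Leaving out 1 library gave 1 to 3 patrolling calls in CIA against Ctrl (1 without Ctrl replicate 2, CIA replicate 1 or CIA replicate 3). In CIA+THz against CIA it gave 3 to 5 other classical, 1 to 3 general and 0 to 2 patrolling calls (0 without CIA+THz replicate 3, 1 without CIA replicate 2 or CIA+THz replicate 1 or 2). In CIA+THz against Ctrl it gave 3 to 7 other classical calls (3 without CIA+THz replicate 1, 4 without Ctrl replicate 3). The median of the 7 genes was 0.31 to 0.72 in CIA against Ctrl (0.72 without Ctrl replicate 1) and 0.09 to 0.53 in CIA+THz against Ctrl (0.09 without Ctrl replicate 3, 0.53 without Ctrl replicate 1). Same-numbered libraries did not deviate together (correlations of -0.0996 to 0.0421 over 9748 genes), and with the replicate number as a block the general monocyte calls in CIA against Ctrl were 11. Nothing in the labels says more about the origin of replicates than separate blood samples, so p-values measure the spread between these samples. With 3 libraries a group, differences of low genes were poorly resolved, and FPKM gives no counting error.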

Other observations

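Lymphocyte genes followed another order than the classical monocyte genes. All 10 T cell genes were below 0 in CIA against Ctrl and all 10 above 0 in CIA+THz against CIA. Only Cd5 passed the criterion in the latter, beside 2.94% of all genes called as higher. Of 6 NK genes tested, Gzma, Prf1 and Ncr1 fell in CIA against Ctrl, beside 4.25% of all genes. Prf1 rose in CIA+THz against CIA, where 2.94% of all genes were called as higher. Prf1, the pore-forming protein of cytotoxic cells, was 41.9, 53.6 and 60.5 rescaled FPKM in Ctrl, 37.5, 23.9 and 18.7 in CIA and 43.2, 38.4 and 52.3 in CIA+THz. The call of Ncr1 was lost without any 1 of Ctrl replicates 2 and 3 and CIA replicates 2 and 3, that of Gzma without Ctrl replicate 1 or 3 or CIA replicate 2, that of Cd5 without CIA replicate 2 or without replicate 1 of CIA+THz, and that of Prf1 in CIA+THz without replicates 2 or 3 of CIA or 1 or 3 of CIA+THz. All 7 B cell genes were above 0 in CIA+THz against both other groups. Pax5 and Fcer2a passed as higher against Ctrl, beside 4.64% of all genes, Pax5 not without Ctrl replicate 1.

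A pair of genes stood out for the spread between libraries of a group. Cebpb, a factor of the monocyte lineage, was 59.1, 58.0 and 46.9 in Ctrl, 102, 4.56 and 106 in CIA and 61.6, 2.08 and 1.52 in CIA+THz. It passed as lower in CIA+THz against Ctrl (-3.18 ± 1.25, adjusted p = 0.243 by limma) with overlapping libraries, and not when any 1 library other than CIA+THz replicate 1 was left out. Cd44, the hyaluronan receptor, was 540.02, 109 and 457 in Ctrl, 115, 449 and 134 in CIA and 362, 353 and 103 in CIA+THz and passed in none of the comparisons.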
